A study of Mus musculus with 24 samples.

Results

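The alpha crystallins and small heat shock proteins were followed across neural retina and eye cup in a mouse model with inducible human PRDM13. The set holds the genes whose symbol is Cryaa, Cryab, Hspb1, Hspb2, Hspb6, Hspb7 or Hspb8, so it has 7 of the 56748 genes in the count table. RNA was sequenced in 24 libraries from 12 mice, with neural retina and eye cup (RPE, choroid and sclera) of each mouse sequenced apart and 3 libraries in each of 8 groups. PRDM13-OE mice were heterozygous for a human PRDM13 knock-in at Rosa26, in which the ubiquitous EF-1α promoter drives rtTA and the TRE3G promoter controls PRDM13, and the controls were wildtype littermates. Each genotype was either untreated or given dox (doxycycline) at 2 mg/ml with 10% sucrose in drinking water for 72 hours, from about a month of age. Untreated mice had neither, so effects of dox and of sucrose cannot be told apart. The EF-1α promoter is not restricted to any retinal cell type. Retina and eye cup came from the same mice and so had the same genotype and treatment.

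Small heat shock proteins are chaperones that bind unfolding proteins and hold them in a soluble state without using ATP, and all share the alpha crystallin domain. CRYAA and CRYAB together form alpha crystallin, a main protein of the lens fibre cell, and CRYAA is made chiefly there while CRYAB is also made in muscle, glia and RPE. HSPB1 is induced by heat and oxidative stress through heat shock factors, HSPB8 works with the co-chaperone BAG3 in the autophagy of damaged proteins, and HSPB2, HSPB6 and HSPB7 are best known from skeletal and heart muscle.

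The promoters are shown because the members are grouped by protein and not by a shared control sequence. The RefSeq promoter table (GRCm38.p6) held 6 promoters of 5 members, Cryaa, Hspb1, Hspb6 (with 2 starts), Hspb7 and Hspb8, among 32851 promoters. Each window was searched on both strands for the heat shock element in a form of 2 inverted units (GAANNTTC or TTCNNGAA) and of 3 units (GAANNTTCNNGAA or TTCNNGAANNTTC, which contains the 2-unit form), for the core of the Maf site (TGCTGAC or GTCAGCA) and for the CArG box of serum response factor. The 4 promoters that hold a match are printed 5′ to 3′ on the gene's strand, from 250 bases before to 30 after the start, with the matches in capitals.
Cryaa, chr17:31677681-31677960, plus strand: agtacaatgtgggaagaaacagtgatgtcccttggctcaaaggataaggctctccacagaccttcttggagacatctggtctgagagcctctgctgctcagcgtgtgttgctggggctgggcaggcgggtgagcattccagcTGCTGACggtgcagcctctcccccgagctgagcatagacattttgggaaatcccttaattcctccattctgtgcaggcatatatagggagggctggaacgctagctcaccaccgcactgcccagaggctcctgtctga
Hspb1, chr5:135887669-135887948, plus strand: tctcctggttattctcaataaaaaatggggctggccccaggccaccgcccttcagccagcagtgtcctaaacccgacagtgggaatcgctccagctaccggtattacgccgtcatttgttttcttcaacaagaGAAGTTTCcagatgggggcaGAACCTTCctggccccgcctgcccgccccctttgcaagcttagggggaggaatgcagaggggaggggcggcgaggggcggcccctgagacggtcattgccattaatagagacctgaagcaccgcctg
Hspb6, downstream start, chr7:30553051-30553330, plus strand: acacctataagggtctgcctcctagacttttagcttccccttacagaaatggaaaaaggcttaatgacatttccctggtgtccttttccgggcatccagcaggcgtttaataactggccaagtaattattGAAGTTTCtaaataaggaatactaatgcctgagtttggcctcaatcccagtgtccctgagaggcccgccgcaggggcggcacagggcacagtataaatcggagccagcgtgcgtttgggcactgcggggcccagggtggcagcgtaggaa
Hspb8, chr5:116422835-116423114, minus strand: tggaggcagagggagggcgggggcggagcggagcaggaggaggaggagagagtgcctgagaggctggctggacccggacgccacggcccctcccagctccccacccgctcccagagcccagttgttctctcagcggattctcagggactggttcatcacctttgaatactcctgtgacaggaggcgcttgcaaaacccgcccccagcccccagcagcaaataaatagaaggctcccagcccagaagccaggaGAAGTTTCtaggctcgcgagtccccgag
The 2-unit element was found in Hspb1 (first base at -117 and at -97 from the start), in the downstream Hspb6 promoter (-120) and in Hspb8 (3), so in 3 of the 6 member promoters, against 15.1% of all promoters of this length. The 3-unit element was in 0 of the 6 (0.603% of all promoters), and so was the CArG box (1.63%). The Maf core, from the sites bound by the large Maf factors of the lens, was in the Cryaa promoter only, at -108, against 4.67% of all promoters. A match describes these letters and no more.

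In the deposited positions (GRCm39), Cryaa (ENSMUSG00000024041) lies at chr17:31896781-31900707 and Cryab (ENSMUSG00000032060) at chr9:50662625-50667936, both on the plus strand. Hspb2 (ENSMUSG00000038086, chr9:50662378-50663654, minus strand) is the head-to-head neighbour of Cryab, and their canonical transcripts start 328 bases apart. Over all annotated transcripts (GENCODE vM39) the pair shared 757 exonic bases of the 1219 of Hspb2, and their canonical transcripts shared 0. The annotation used for counting gave Hspb2 834 bases, so the shared part in these counts is not known. Reads in a shared stretch could be counted on either gene unless strand was used. The strand setting of the counting is not given in the sources used here, and values of Hspb2 are therefore uncertain where Cryab is high. Hspb6 (ENSMUSG00000036854, chr7:30251603-30254868, plus strand) likewise overlaps Lin37 and Proser3 on the opposite strand and Mir9769 on its own, and Cryaa overlaps Gm50222 on the opposite strand. Hspb1 (ENSMUSG00000004951, chr5:135916773-135918417, plus), Hspb7 (ENSMUSG00000006221, chr4:141148090-141152622, plus) and Hspb8 (ENSMUSG00000041548, chr5:116546550-116560923, minus) had no overlapping neighbour in the table.

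Between 15825059 and 24908314 reads per library were counted on genes. The insert's human transcript was not analysed here, and mouse Prdm13, which the cassette does not contain, was between 44.9 and 60.3 CPM (counts scaled to library size with edgeR's TMM factors, within each tissue) in all 12 retinas. Rod genes marked every retina (56933 to 82595 CPM summed over 12 genes) and were also counted in every eye cup (3674 to 50864), so the eye cups held retinal RNA in unequal amounts. The eye cups also held genes of skeletal muscle and of surface epithelium, tissues that their label does not name, and neither label names the lens. In this bulk RNA, fewer cells of a type and less RNA per cell cannot be told apart.

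In untreated wildtype mice, the members fell into abundant and scarce genes, and the order differed between the tissues. On the scale of FPKM, which divides by gene length and so allows genes to be compared, the retina held 3 abundant members, namely Cryaa at 72.0 ± 62.2 FPKM (SD, n = 3), Hspb6 at 49.8 ± 5.60 and Cryab at 48.5 ± 21.5. These levels did not differ beyond their spread. Hspb8 (6.37 ± 0.974 FPKM) and Hspb1 (6.14 ± 0.719) followed, again not apart from each other, and Hspb2 and Hspb7 had at most 4 and 3 counts per retina in this group. In the eye cup the order was Cryab (433 ± 78.3 FPKM), Cryaa (327 ± 416), Hspb1 (232 ± 38.8), Hspb8 (41.7 ± 5.97), Hspb6 (37.4 ± 5.43), Hspb2 (5.02 ± 1.39) and Hspb7 (2.93 ± 2.28). Cryaa was the member with the widest spread there, with 803, 141 and 37.0 FPKM in mice 1, 2 and 3, and its range covered the levels of Cryab and Hspb1.

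**Figure D1:**
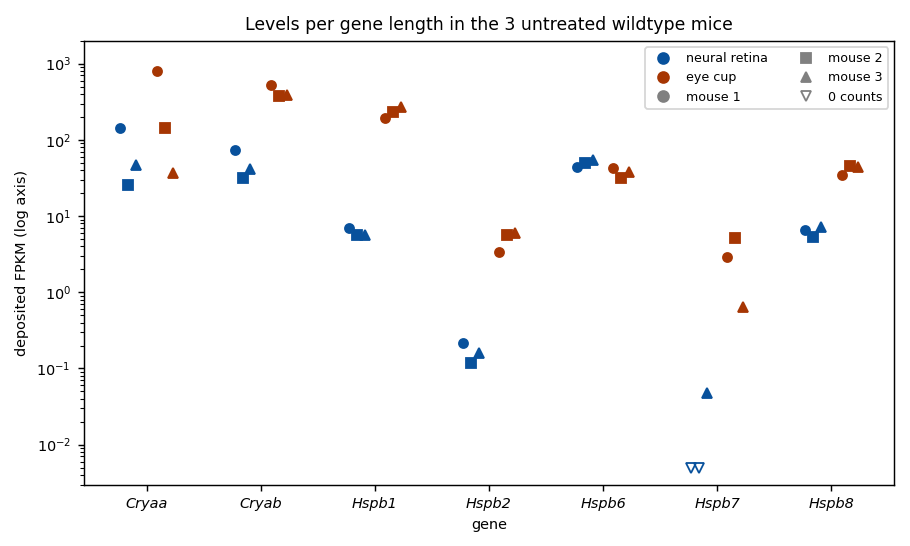
Deposited FPKM (log axis) of the 7 members in the neural retina (blue) and eye cup (red) of the 3 untreated wildtype mice, each mouse with its own symbol and open triangles for 0 counts. Hspb1, Hspb2 and Hspb8 are higher in the eye cup of all 3 mice, Hspb6 is between 31.6 and 55.2 FPKM in both tissues, and Cryaa overlaps between the tissues.

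Most members were higher in the eye cup, and Hspb6 was not. In edgeR's quasi-likelihood test of untreated wildtype eye cups against retinas, 5 of the 7 members were called higher (an adjusted p below 0.05 with a log2 difference of more than 1), where 25.9% of the 21979 genes tested were called higher and 45.2% in either direction. Hspb1 rose from 7.79, 6.56 and 6.39 CPM in the retinas of mice 1, 2 and 3 to 182, 227 and 260 CPM in their eye cups, a log2 fold change of 5.24 (SE 0.20, adjusted p = 2.94e-06). Hspb8, the partner of BAG3, rose by 2.72 (SE 0.18, adjusted p = 1.81e-05), from 11.5 to 15.4 CPM in the retinas to 62.0 to 85.8 in the eye cups. Cryab rose by 3.16 (SE 0.33, adjusted p = 0.00016), from 117, 52.0 and 66.0 CPM to 705, 542 and 541 CPM. All of these ranges were apart between the tissues.

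The muscle-type members Hspb2 and Hspb7 were the scarcest in retina. Hspb2 had 4, 2 and 3 counts in the untreated wildtype retinas and 59, 69 and 101 in the eye cups (log2 fold change 4.87, SE 0.44, adjusted p = 8.3e-05), and Hspb7 had 0, 0 and 3 counts against 169, 209 and 36. The retinas were at or near the limit of 3 counts per library that was taken as the floor of detection, so the fitted log2 value of 7.27 for Hspb7 (SE 1.14, adjusted p = 0.00113) depends on the prior count. Cryaa differed by 2.17 (SE 1.08, adjusted p = 0.117), with overlapping groups. Hspb6 was slightly lower in the eye cup (-0.41, SE 0.15, adjusted p = 0.0489), which is past the threshold on p and not past the fold cutoff, and with the mouse as a block its adjusted p was 0.0733.

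Over all 12 mice of the 4 groups, the eye cup exceeded the retina of the same mouse in 12 of 12 mice for Hspb1, Hspb2 and Hspb8, in 10 for Cryab and in 9 for Cryaa. CPM was scaled in each tissue apart. Its median ratio was 32.7 for Hspb1, 13.9 for Hspb2, 7.92 for Cryab, 6.23 for Hspb8 and 3.79 for Cryaa. For Hspb6 the median ratio was 0.834 by CPM and 0.947 by FPKM, lower in the eye cup on both scales. The eye cup was higher in 2 mice by CPM and in 5 by FPKM, so the direction in single mice depended on the scaling. Of 23 other heat shock chaperones and co-chaperones, 4 were called higher in the untreated wildtype eye cup and 3 lower, with a median log2 fold change of 0.10 against 0.06 over all genes. Serpinh1, the collagen chaperone, was higher by 4.14, and Bag3, the partner of Hspb8, by 3.13. Hspa1b, a stress-inducible HSP70, was higher by 2.50, while Hspa4l was lower by -2.19 on the same log2 scale. All 11 skeletal muscle genes tested and all 8 surface epithelium genes were called higher in the eye cup too. So were 11 of 11 RPE and pigment genes, 7 of 8 of fibroblast and sclera, 6 of 8 of smooth muscle, 6 of 7 endothelial, 5 of 5 red blood cell, 8 of 12 reactive glia, 3 of 8 Mueller glia, 4 of 13 other lens genes and 1 of 14 beta and gamma crystallins, while 12 of 12 rod genes were lower. Among the genes of these lists called lower were Aqp4 (-1.58) of Mueller glia, Tdrd7 (-1.60) of the other lens genes and Synpo2 (-1.16) of smooth muscle. The part of these lists in the member differences was not tested.

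The study asked how elevated PRDM13 alters the retina, by comparing PRDM13-OE with wildtype mice under dox. Cryaa and Cryab were far lower in PRDM13-OE retinas with dox than in wildtype retinas with dox, while the log2 differences of Hspb1, Hspb6 and Hspb8 lay between -0.24 and -0.17. Cryaa was at 6.26, 10.9 and 1.02 CPM in the PRDM13-OE retinas with dox (mean 6.05 ± 4.93, SD, n = 3) and at 4778, 2294 and 36.5 CPM in the wildtype retinas with dox (2369 ± 2372). Cryab was at 25.8, 26.0 and 27.3 CPM (26.4 ± 0.804) against 1512, 937 and 47.8 CPM (832 ± 738). The groups did not overlap for either gene, as for 15.4% of all genes in that direction, and within the wildtype group mouse 3 lay far below mice 1 and 2.

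By edgeR's quasi-likelihood test the log2 fold change was -8.61 (SE 1.40, adjusted p = 0.00188) for Cryaa and -4.98 (SE 0.85, adjusted p = 0.00266) for Cryab. So 2 of the 6 members tested were called, both lower, where 2.41% of the 20560 genes tested were called in either direction and 1.5% were called lower. The size rested on 2 wildtype libraries. Without wildtype mice 1 and 2, a comparison chosen after seeing the data in which the lone wildtype retina is assumed to vary like the others, Cryaa fell by 2.61 (adjusted p = 0.000726) and Cryab by 0.87 (adjusted p = 1.89e-05) on the log2 scale. With edgeR's robust fitting, which lets genes of unusual spread keep it, the adjusted p was 0.101 for Cryaa and 0.114 for Cryab, and neither was called.

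The lens genes moved with the alpha crystallins in these libraries. All 14 beta and gamma crystallins, the other structural proteins of the lens fibre, were called lower in the same comparison, with a median log2 fold change of -7.26. Cryba4 (-9.25), Crybb2 (-8.65), Crygs (-8.64) and Cryba1 (-8.54) had the largest falls. Their summed level was 11.4, 18.2 and 2.79 CPM in the PRDM13-OE retinas with dox and 6557, 2444 and 82.0 CPM in the wildtype retinas with dox, which is the order of the mice for Cryaa in the wildtype group. Of 12 other lens genes tested, 8 were lower, led by Mip, the lens water channel (-8.40), and Foxe3, a lens transcription factor (-8.27). With the summed beta and gamma crystallin level as a covariate over all 12 retinas, the log2 difference was 0.59 for Cryaa (SE 0.34, adjusted p = 0.473) and -0.61 for Cryab (SE 0.93, adjusted p = 0.827), so neither was called and Cryaa changed sign.

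Red blood cell genes moved in the same comparison as well, with 5 of 5 called lower and sums of 0.709 to 1.18 CPM against 31.2 to 77.8. Pmel, Mlana and Tyrp1 of the 11 RPE and pigment genes were lower, at -1.99, -1.92 and -1.68 on the log2 scale, and the sum of the list was 183 to 193 CPM against 242 to 278. The summed rod genes were 56933 to 63411 CPM against 75832 to 78649. Acta2 (-2.16) and Myh11 (-1.80) of the smooth muscle genes and Kdr (-1.33) of the endothelial genes were called lower too, with sums of 46.8 to 50.8 CPM against 73.3 to 96.9 for smooth muscle and 141 to 164 CPM against 304 to 320 for endothelium. Fmod (-1.15) of the fibroblast and sclera genes and Perp (-1.18) of the surface epithelium genes were called lower as well, with sums of 40.0 to 78.0 CPM against 80.8 to 111 and, overlapping, of 5.80 to 9.45 CPM against 6.61 to 20.9. The part of these tissues in the crystallin difference was not tested.

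Hspb1, Hspb8 and Hspb6 gave small values in the same retinas. Hspb1 was at 8.03, 8.41 and 7.53 CPM against 9.96, 10.2 and 6.73 (log2 fold change -0.17, SE 0.16, adjusted p = 0.540), with overlapping groups. Hspb8 was at 11.0, 11.1 and 9.73 CPM against 13.9, 10.7 and 12.9 (-0.24, SE 0.12, adjusted p = 0.242), also overlapping. Hspb6 was at 103, 113 and 115 CPM against 128, 128 and 125, also with no overlap, and fell by 0.21 (SE 0.06, adjusted p = 0.0344). That is past the threshold on p, as 12.5% of all genes were, but under the fold cutoff, and with library size in place of TMM factors the adjusted p was 0.189.

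Hspb2 was highest in the retinas with the most Cryab. It had 2, 2 and 6 counts in the PRDM13-OE retinas with dox and 20, 21 and 4 in the wildtype retinas with dox, the 2 high ones being wildtype mice 1 and 2 (log2 fold change -2.15, SE 0.66, adjusted p = 0.0552). DESeq2 gave an adjusted p of 0.0479, and without wildtype mouse 3 edgeR gave 0.00877. With the crystallin covariate the log2 difference of Hspb2 was 0.20 (SE 1.21, adjusted p = 0.965). Whether these counts are Hspb2 transcripts or reads of the overlapping Cryab was not tested. Hspb7 had 0, 1 and 0 counts against 6, 2 and 0, too few to be tested.

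The wider chaperone network held no called gene in this comparison. Of 23 heat shock chaperones and co-chaperones 0 were called (median log2 fold change -0.12), where 2.41% of all genes were. Their sum was lower without overlap, at 5563 to 5720 CPM in PRDM13-OE and 6093 to 6185 in wildtype retinas with dox. The counts of called genes were also 0 of 5 heat shock factors, 0 of 7 genes of the Hspb8 and Bag3 pathway, 0 of 12 reactive glia genes and 0 of 2 other small heat shock proteins tested, Hspb3 and Hspb9, which had at most 20 counts in any library.

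**Figure D2:**
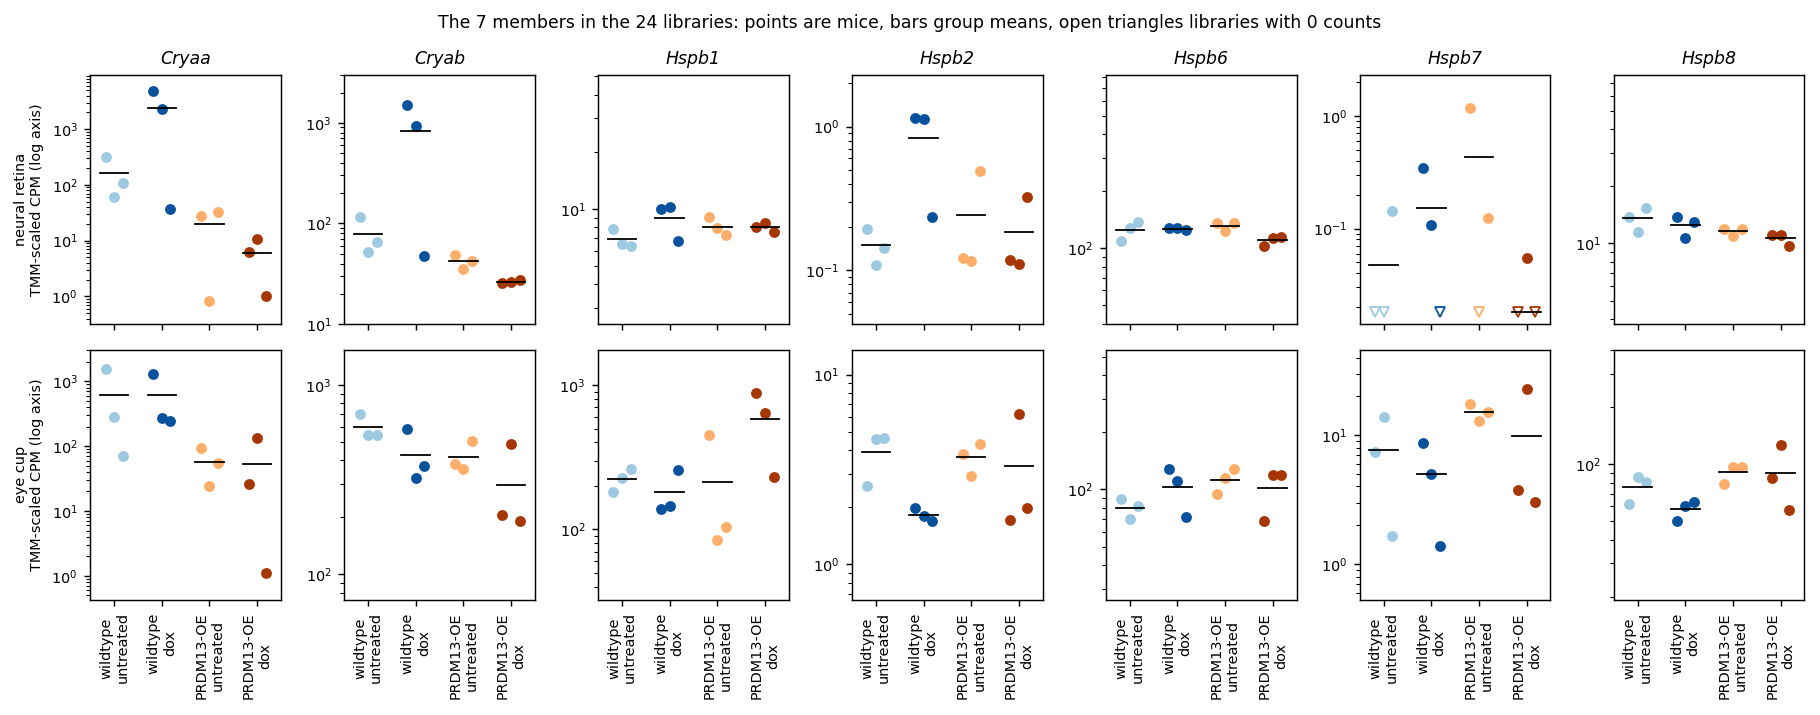
TMM-scaled CPM (log axes) of each member in every library of neural retina (upper row) and eye cup (lower row), by group, with 1 point per mouse, a bar at the group mean and open triangles for 0 counts. In retina, 2 wildtype mice with dox stand far above the rest for Cryaa, Cryab and Hspb2, while Hspb1, Hspb6 and Hspb8 span 1.33-fold to 1.60-fold over all 12 libraries.

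Dox with its sucrose, in the absence of the insert, was examined in the wildtype retinas. This comparison shares its wildtype libraries with dox with the one before. Cryaa was at 322, 59.8 and 107 CPM in untreated mice, so the wildtype mice with dox were above them in mice 1 and 2 and below them in mouse 3. The log2 fold change was 3.86 for Cryaa (SE 1.14, adjusted p = 0.322) and 3.41 for Cryab (SE 0.83, adjusted p = 0.250). None of the 7 members was called by edgeR's quasi-likelihood test or by DESeq2, where 0.00485% of all genes were called by edgeR, and 3 members had an unadjusted p under 0.05, as 9.32% of all genes did. Those were Cryaa, Cryab and Hspb2, the last with counts of 20, 21 and 4 against 4, 2 and 3 and with no overlap of the groups in CPM, as for 6.44% of all genes. Without the wildtype mouse 3 with dox all 3 were called, with 0.622% of all genes, at 4.44 for Cryaa (adjusted p = 0.00231), 3.97 for Cryab (adjusted p = 5.35e-05) and 2.87 for Hspb2 (adjusted p = 0.0231). Without wildtype mice 1 and 2 with dox the direction turned for both crystallins, to -2.15 for Cryaa and -0.70 for Cryab (adjusted p = 0.992 for both), and 0.0% of all genes were called. Hspb1 (0.38), Hspb6 (0.02) and Hspb8 (-0.12) had adjusted p of 0.542 to 0.952.

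Dox in PRDM13-OE mice, compared with untreated PRDM13-OE mice, gave a smaller difference for Cryab with little spread between the mice with dox. These libraries with dox are those of the comparison with wildtype mice. Cryab was at 25.8, 26.0 and 27.3 CPM with dox and at 48.5, 35.6 and 42.5 CPM without, with no overlap, as for 9.95% of all genes in that direction. It fell by 0.68 on the log2 scale (SE 0.10, adjusted p = 0.0014), under the fold cutoff of 1. Hspb6, also without overlap, was at 103, 113 and 115 CPM against 136, 123 and 136 and fell by 0.26 (SE 0.07, adjusted p = 0.0463). Cryaa was at 6.26, 10.9 and 1.02 CPM against 27.3, 0.816 and 32.6 (-1.74, SE 0.81, adjusted p = 0.325), and the groups overlapped through the untreated mouse 2.

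In this comparison 0 of the 7 members were called by edgeR or by DESeq2, where edgeR called 1.04% of all genes, and 3 members and 15.6% of all genes had an unadjusted p under 0.05. Without the fold cutoff Cryab and Hspb6 passed, where 5.0% of all genes did. The value of Cryab depended on which libraries set the spread: with all 12 retinas in one fit, which takes in the 2 wildtype retinas of very high Cryab, the adjusted p was 0.736 at the same log2 fold change. With the crystallin covariate it was 0.19 (SE 0.49, adjusted p = 0.919). For Hspb6 the covariate left -0.25 (adjusted p = 0.104), and library size in place of TMM factors gave -0.19 (adjusted p = 0.130). Beside these falls, the rod sum was 56933 to 63411 CPM with dox and 75845 to 82595 without, and 5 of 5 red blood cell genes were called lower, at a median of -5.54. Cryba4 (-3.17) and Crygb (-2.79) of 13 beta and gamma crystallins tested and Kdr (-1.11) of the endothelial genes were also called lower, and Lcn2 (1.09) of the reactive glia genes was called higher. The endothelial sum was 141 to 164 CPM against 264 to 309 and the smooth muscle sum 46.8 to 50.8 CPM against 69.5 to 78.3, both without overlap. The sum of the other lens genes was also lower without overlap, at 326 to 344 CPM against 389 to 423. The part of these tissues in the values of Cryab and Hspb6 was not tested beyond the crystallin covariate.

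Hspb7 in retina was counted mainly in 1 library. The untreated PRDM13-OE mouse 1 had 19 counts, its group mates had 0 and 2, and the other 9 retinas had at most 6. The same library had a skeletal muscle sum of 59.2 CPM, against 5.44 to 8.96 CPM in the other 11 retinas. The fitted difference of -4.07 (adjusted p = 0.200) between the PRDM13-OE groups rests on that library, without which the gene was too scarce to be tested.

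Between untreated PRDM13-OE and untreated wildtype retinas, Cryaa (27.3, 0.816 and 32.6 against 322, 59.8 and 107 CPM) and Cryab (48.5, 35.6 and 42.5 against 117, 52.0 and 66.0 CPM) were lower without overlap, as 5.18% of all genes were. The log2 differences of -3.00 for Cryaa and -0.88 for Cryab had an unadjusted p under 0.05, as 3.76% of all genes did, and an adjusted p of 0.995 by edgeR. None of the 7 members and 0.0% of all genes were called, and DESeq2 called 0 members. In the same libraries the beta and gamma crystallin sum was 49.9, 5.13 and 93.7 CPM against 574, 135 and 188 CPM.

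The interaction of genotype and dox over the 12 retinas was called for Cryab, at -4.09 (SE 0.95, adjusted p = 0.0227), so 1 of the 7 members, where 0.87% of all genes were called. For Cryaa it was -5.60 (SE 1.64, adjusted p = 0.0849). For Hspb1 (-0.39), Hspb6 (-0.28) and Hspb8 (-0.01) the adjusted p lay between 0.224 and 0.989. Hspb2 (-2.81, adjusted p = 0.219 by edgeR) and Hspb7 (-5.57, adjusted p = 0.253) had few counts. Unadjusted p was under 0.05 for 5 members and 14.4% of all genes. Red blood cell genes Hba-a2 (-8.66), Hbb-bs (-6.18), Hba-a1 (-5.85) and Hbb-bt (-5.00) were called lower in the same interaction. So were Kdr (-1.24) and Tie1 (-1.04) of the endothelial genes. Their part in the Cryab value was not tested. Without wildtype mice 1 and 2 with dox the interaction for Cryab was 0.02 (adjusted p = 0.992), and with robust fitting its adjusted p was 0.203. The Cryab call was also lost when any one of 6 libraries was left out. Without PRDM13-OE mouse 1, 2 or 3 with dox the adjusted p for Cryab was 0.0576, 0.0686 and 0.0572, without wildtype mouse 1 with dox it was 0.0667 (at -3.33), and without untreated wildtype mouse 2 or 3 it was 0.0660 and 0.0624. Cryaa, in turn, was called without untreated PRDM13-OE mouse 2 (-6.17, adjusted p = 0.0404, with 1.04% of all genes) or wildtype mouse 3 with dox (-6.18, adjusted p = 0.00336, with 1.14% of all genes). Its sign changed in 2 other settings, to 0.63 with the lens crystallin covariate (adjusted p = 0.453) and to 0.40 without wildtype mice 1 and 2 with dox (adjusted p = 0.940).

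**Figure D3:**
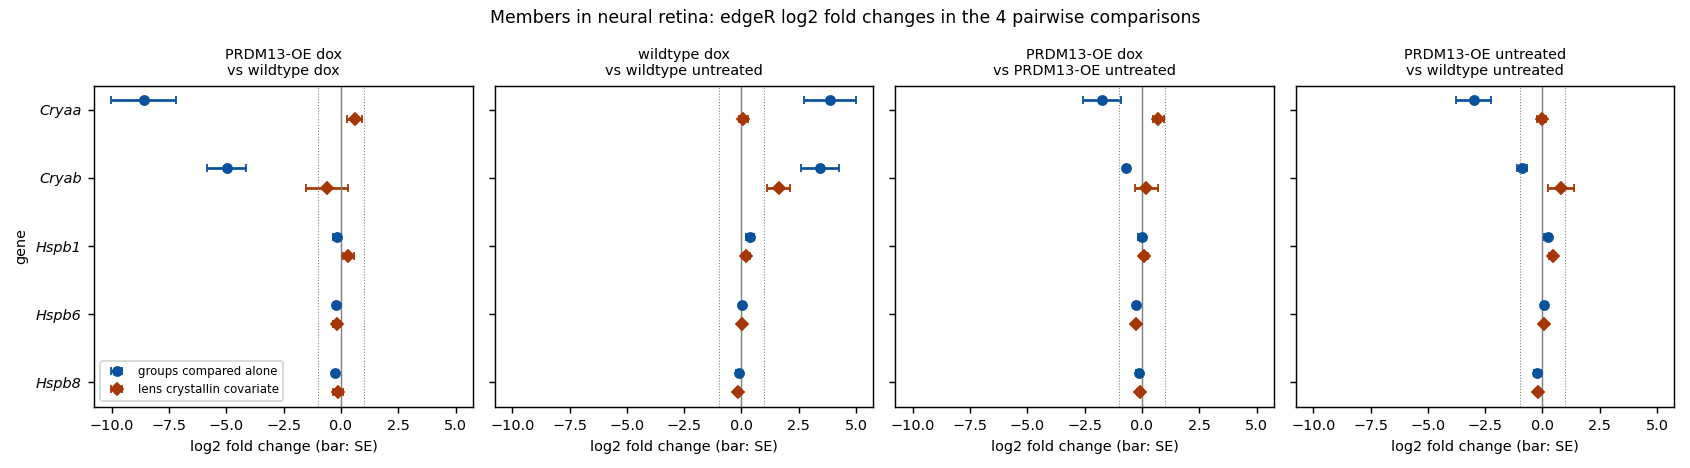
Log2 fold changes (x axis, bars are the SE) of 5 members in the 4 pairwise retina comparisons, with the groups compared alone (blue) and with the beta and gamma crystallin sum as covariate over all 12 retinas (red); dotted lines mark the fold cutoff of 1. Cryaa and Cryab lie far from 0 in the first comparison (-8.61 and -4.98) and near 0 with the covariate (0.59 and -0.61), while Hspb1, Hspb6 and Hspb8 stay within 1 of 0 throughout. The covariate does not overlap between the groups of the first comparison.

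The alpha crystallins were next set against the other lens crystallins library by library. For every 1000 counts of beta and gamma crystallins, the retinas held 159 to 939 counts of Cryaa (median 549) and the eye cups 117 to 706 (median 557) while the beta and gamma sum itself ran from 2.79 to 6557 CPM in retina. The same measure for Cryab ran from 203 to 9769 in retina (median 518) and from 304 to 20191 in eye cup (median 2194). The highest ratio thus exceeded the lowest 5.90-fold in retina and 6.02-fold in eye cup for Cryaa, and 48.1-fold and 66.4-fold for Cryab, whose ratio was highest where lens crystallins were scarce. Without PRDM13-OE mouse 3 with dox the eye cup ranges were 1.78-fold for Cryaa and 21.3-fold for Cryab, and without untreated PRDM13-OE mouse 2 the retina range was 2.70-fold for Cryaa. With 14 other lens genes in place of the beta and gamma crystallins the order of the 2 genes was turned round, at 1913-fold in retina and 917-fold in eye cup for Cryaa against 16.1-fold and 3.84-fold for Cryab, and Tdrd7, which is not specific to the lens, held 5314 to 9233 counts of that list in each retina. In the PRDM13-OE retina with dox of mouse 3, with a lens crystallin sum of 2.79 CPM, Cryab was still at 27.3 CPM and Cryaa at 1.02. In the eye cup of that mouse, at 9.47 CPM of lens crystallins, Cryab was at 191 CPM and Cryaa at 1.11 CPM.

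The ratio of Cryab to Cryaa counts was 0.316 and 0.409 in the wildtype retinas with dox of mice 1 and 2 and 0.363 in the untreated wildtype retina of mouse 1, the 3 lowest of all libraries. It was 1.31 in the wildtype retina with dox of mouse 3, and highest among retinas in the untreated PRDM13-OE mouse 2 (43.6) and the PRDM13-OE mouse 3 with dox (26.7). In the eye cups it ran from 0.449 to 172. The lowest Cryab level of any retina was 25.8 CPM and the lowest of any eye cup was 191 CPM. Müller glia genes, whose cells are known to make Cryab, summed to between 6310 and 7413 CPM in the 12 retinas, and 0 of 8 were called in either dox comparison of PRDM13-OE retinas. In the interaction of genotype and dox, 1 of the 8 was called lower, Clu (-1.06, adjusted p = 1.58e-05 by edgeR).

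**Figure D4:**
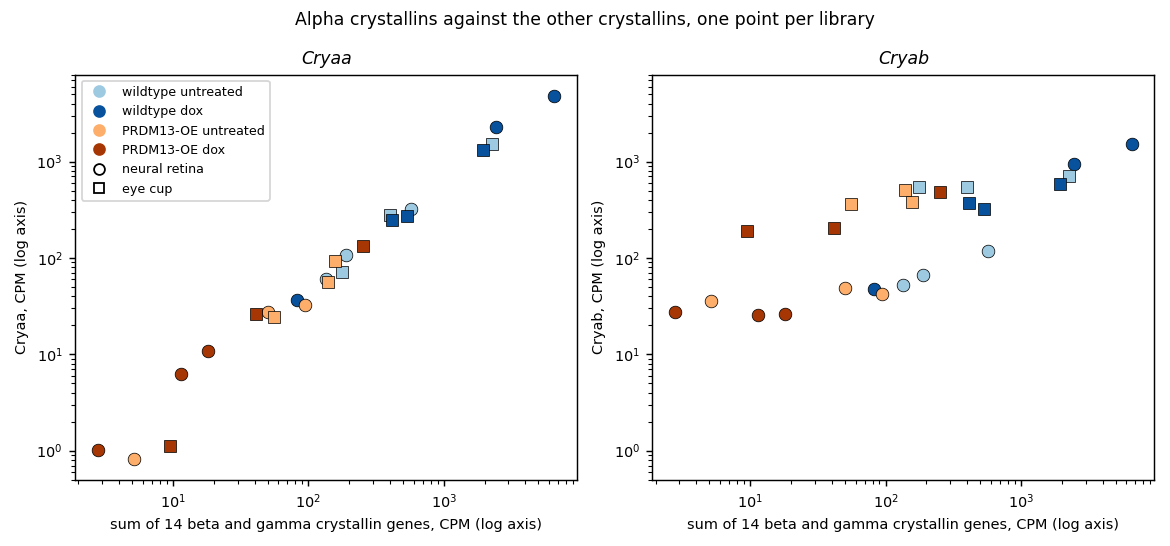
CPM of Cryaa (left) and Cryab (right) against the summed CPM of 14 beta and gamma crystallins (log axes), with 1 point per library, circles for retina and squares for eye cup, coloured by group. Cryaa lies along one line in both tissues, whereas Cryab flattens at low lens crystallin, where the lowest values are 25.8 CPM in retina and 191 CPM in eye cup.

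The genes whose pattern was most like each member were named by Pearson's r of log2(CPM + 1) over the 12 libraries of a tissue, as a description in which genes share libraries and depth. For Cryaa they were Cryba1 (r = 0.996), Crygs (0.995) and Crybb2 (0.994) in retina and Cryba1 (0.993), Cryba4 (0.983) and Crygs (0.981) in eye cup. For Cryab they were Bfsp2 (0.985), a lens filament gene, Crygn (0.982) and Gja3 (0.979), a lens connexin, in retina, but Crygn (0.882), Bfsp2 (0.865) and Fbln2 (0.855), a matrix gene, in eye cup. Between the members themselves, Cryaa and Cryab had r = 0.92 in retina and 0.78 in eye cup.

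The small heat shock proteins had no lens gene among their nearest. For Hspb1 these were Zc3hav1 (0.905), Kctd11 (0.887) and S100a6 (0.881) in retina and included Ap1ar (0.967) and Itgb7 (0.963) in eye cup. For Hspb6 they were Nim1k (0.924), Pde6g (0.900) and Reep6 (0.899) in retina, the latter pair being rod genes, and Bmpr1b (0.851), Dhh (0.848) and Gm12319 (0.841) in eye cup. For Hspb8 they were Edil3 (0.906), Cnih3 (0.891) and Chmp2b (0.891) in retina and Hebp1 (0.940), Aldh4a1 (0.918) and Ptges3l (0.908) in eye cup. For Hspb7 in eye cup they were 3425401B19Rik (0.969), Myom1 (0.969) and Actn2 (0.955), where the latter pair are sarcomere genes, and for Hspb2 they were 0610009L18Rik (0.953), Macrod1 (0.942) and Ndufs3 (0.941). In retina both Hspb2 and Hspb7 were under the level of 1 CPM at which likeness was measured.

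In the eye cup, dox in PRDM13-OE mice against wildtype mice gave no called member. Hspb1 was the member with the largest positive value, at 877, 640 and 232 CPM in PRDM13-OE and 139, 144 and 257 CPM in wildtype (1.77, SE 0.53, adjusted p = 0.597). The groups overlapped through PRDM13-OE mouse 3 and wildtype mouse 3. Hspb8 was at 85.1, 126 and 57.1 CPM against 50.1, 60.4 and 63.6 (0.68, SE 0.30, adjusted p = 0.597). Cryaa was lower in every PRDM13-OE eye cup, at 26.4, 132 and 1.11 CPM against 1308, 271 and 247 (-3.47, SE 1.42, adjusted p = 0.597), and 8.46% of all genes were lower without overlap. The summed beta and gamma crystallins were also lower without overlap in these eye cups (9.47 to 251 against 413 to 1932 CPM), as were the other lens genes (118 to 195 against 212 to 351 CPM) and the red blood cell genes (12.4 to 14.3 against 238 to 559 CPM), and their part in the Cryaa value was not tested. Cryab was at 206, 489 and 191 CPM against 587, 324 and 373 (-0.49, SE 0.41, adjusted p = 0.689).

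By edgeR 0 of the 7 members and 0.0184% of the 21758 genes tested were called in this comparison. The other members had log2 values of 0.90 for Hspb2, 0.04 for Hspb6 and 1.03 for Hspb7 with adjusted p of 0.608 to 0.971. Unadjusted p was under 0.05 for 2 members, Cryaa and Hspb1, and for 8.24% of all genes, and DESeq2 called 0 members. Without PRDM13-OE mouse 3, Hspb1 was called (2.15, adjusted p = 0.0175), and so were 8.32% of all genes. Of the 23 heat shock chaperones 0 were called, at a median of 0.03, and 3 of 5 red blood cell genes were called lower.

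**Figure D5:**
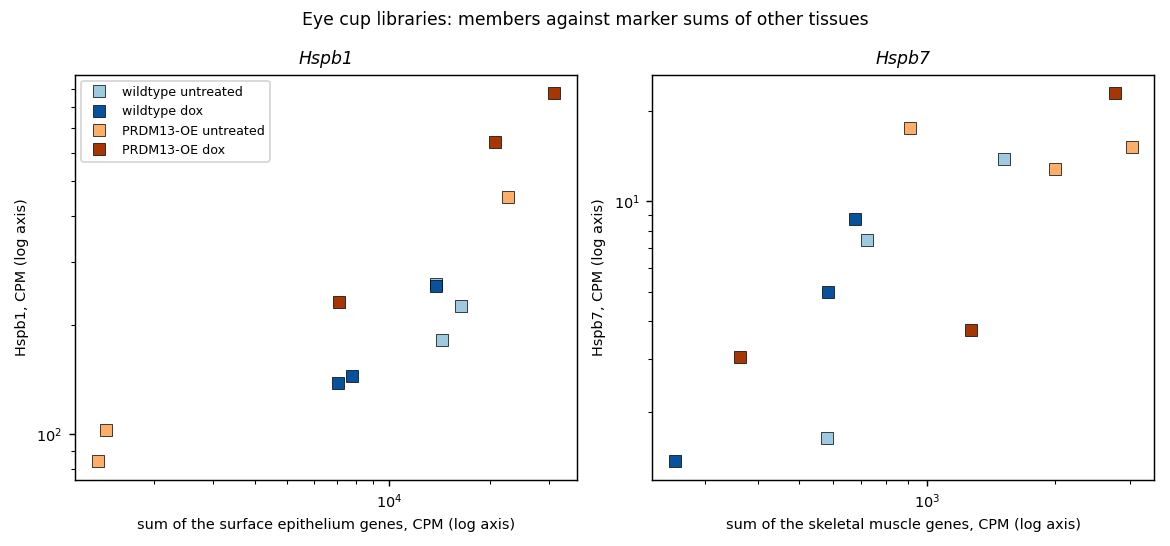
Eye cup CPM of Hspb1 against the summed surface epithelium genes (left) and of Hspb7 against the summed skeletal muscle genes (right), on log axes, with 1 point per library coloured by group. The 3 eye cups with the most Hspb1 (877, 640 and 452 CPM) are the 3 with the highest epithelium sums, and the untreated PRDM13-OE mice 2 and 3 are lowest on both axes of the left panel.

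The epithelium markers moved with Hspb1 in most of the eye cups. The summed 8 genes were at 31043, 20744 and 7117 CPM in PRDM13-OE mice with dox, the order of Hspb1 in these mice, and at 7062, 7783 and 13825 CPM in wildtype mice with dox, again in the order of Hspb1 (139, 144 and 257 CPM). In untreated PRDM13-OE mice, Hspb1 was at 452, 84.3 and 103 CPM and the epithelium sum at 22611, 1366 and 1446 CPM. In untreated wildtype mice the orders differed, with 182, 227 and 260 CPM of Hspb1 beside sums of 14411, 16424 and 13845 CPM. In retina, where the sum was 4.67 to 20.9 CPM, Hspb1 lay between 6.39 and 10.2 CPM. The part of epithelial tissue in the Hspb1 values was not tested.

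Skeletal muscle sums were set beside Hspb7, the cardiac and skeletal muscle member. Hspb7 was at 3.73, 22.9 and 3.04 CPM and the muscle sum at 1271, 2767 and 363 CPM in PRDM13-OE eye cups with dox. In the wildtype eye cups with dox Hspb7 was at 8.74, 4.99 and 1.37 CPM and the muscle sum at 678, 583 and 255 CPM. The orders differed in part, since PRDM13-OE mouse 1 with dox had more muscle RNA and less Hspb7 than wildtype mouse 1 with dox. The highest Hspb7 value of the 12 eye cups was in the PRDM13-OE mouse 2 with dox, which had the second highest muscle sum, and the lowest was in the wildtype mouse 3 with dox, which had the lowest sum. The part of muscle in the Hspb7 values was not tested.

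Dox with its sucrose in wildtype eye cups gave 0 called members and 0.0% of all genes by edgeR. There 2 of 7 members and 29.9% of all genes had an unadjusted p under 0.05. Hspb2 was at 1.97, 1.79 and 1.69 CPM with dox and 2.60, 4.55 and 4.61 CPM without, lower with no overlap, as 16.3% of all genes were (-1.13, SE 0.32, adjusted p = 0.0809). DESeq2 called it (-1.12, adjusted p = 0.0183), with 9.03% of all genes. Hspb8 was the other one, with 50.1, 60.4 and 63.6 CPM against 62.0, 85.8 and 80.3 (-0.41, SE 0.17, adjusted p = 0.153). In these eye cups the rod sum was 26455 to 50864 CPM with dox and 3674 to 25839 without, and the RPE and pigment sum was 10171 to 21887 CPM against 29285 to 46067, with no overlap in either. Also lower with dox and without overlap were the sums of the endothelial genes (377 to 578 against 588 to 1158 CPM), the surface epithelium genes (7062 to 13825 against 13845 to 16424), the Mueller glia genes (8060 to 8774 against 8948 to 13077) and the heat shock factors (187 to 194 against 210 to 233). Their part in the values of Hspb2 and Hspb8 was not tested. Cryaa (-0.09), Cryab (-0.51), Hspb1 (-0.33), Hspb6 (0.33) and Hspb7 (-0.61) were not called either.

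The remaining eye cup comparisons called no member. In PRDM13-OE eye cups with dox against untreated ones, Hspb1 differed by 1.45 (SE 0.77, adjusted p = 0.975), edgeR and DESeq2 both called 0 members, no member had an unadjusted p under 0.05, and 0.0139% of all genes were called by edgeR. In untreated PRDM13-OE against untreated wildtype eye cups, Cryab was lower without overlap (381, 359 and 506 against 705, 542 and 541 CPM, as for 3.14% of all genes) and Hspb6 higher (94.7, 115 and 129 against 88.7, 69.6 and 82.0 CPM, as for 2.69%). The beta and gamma crystallin sum was 55.5 to 156 CPM against 178 to 2272, also with no overlap, and its part in the Cryab value was not tested. Cryaa was at 92.0, 24.5 and 55.7 CPM against 1521, 281 and 71.4 CPM, with overlap. There 2 members, Cryaa and Hspb6, and 1.87% of all genes had an unadjusted p under 0.05, 0.0% of all genes were called by edgeR, and DESeq2 called 0 members. The interaction of genotype and dox in the eye cups was called for 0 members and 0.0% of genes by edgeR, with 0 members at an unadjusted p under 0.05 and 0 called by DESeq2, and was 1.78 for Hspb1 (adjusted p = 0.753).

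Whether the genotype difference under dox was larger in retina than in eye cup was tested as an interaction over the 12 libraries of the mice with dox. It was -4.53 for Cryab (SE 1.17, adjusted p = 0.685), -5.19 for Cryaa (SE 2.21, adjusted p = 0.689) and -1.96 for Hspb1 (SE 0.60, adjusted p = 0.685) by edgeR, which called 0 members and 0.0% of genes. Unadjusted p was under 0.05 for 5 members and 7.17% of all genes, and DESeq2 called Cryab (-4.55, adjusted p = 0.021) and 0.148% of all genes. Without the eye cup of PRDM13-OE mouse 3, edgeR called 9.13% of all genes and 4 members, Cryab (-4.67, adjusted p = 0.0207), Hspb1 (-2.25, adjusted p = 0.00359), Hspb2 (-3.24, adjusted p = 0.0355) and Hspb8 (-1.10, adjusted p = 0.00953). Cryab was also called without the retina of wildtype mouse 3 with dox (-5.08, adjusted p = 0.0200), with 0.0128% of all genes. Without the retinas of wildtype mice 1 and 2 with dox the value for Cryab was -0.40 (adjusted p = 0.993) and that for Cryaa turned to 0.83 (adjusted p = 0.998). The edgeR calls of a difference between the tissues therefore depended on leaving out 1 of these libraries.

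The range over all libraries of a tissue differed between the members. The highest retina exceeded the lowest 5852-fold for Cryaa and 58.6-fold for Cryab and 10.5-fold for Hspb2 (2 to 21 counts), against 1.60-fold for Hspb1, 1.58-fold for Hspb8 and 1.33-fold for Hspb6. In the eye cups the range was 1370-fold for Cryaa, 16.7-fold for Hspb7, 10.4-fold for Hspb1, 3.69-fold for Cryab, 3.68-fold for Hspb2, 2.52-fold for Hspb8 and 1.89-fold for Hspb6. Without the wildtype retina of mouse 1 with dox the retina range was 2809-fold for Cryaa and 36.3-fold for Cryab, and without the eye cup of PRDM13-OE mouse 3 with dox the eye cup range of Cryaa was 62.2-fold. Cryab thus spread more in retina and Hspb1 more in eye cup.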

How the data were processed

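RNA from neural retina and eye cup of 12 mice was sequenced as poly(A) libraries, 24 in all, by a commercial provider for the authors. The deposited values are read counts per gene, not normalized, and FPKM values, which the authors computed per library from the same counts and the gene lengths. The submitters' processing notes name HISAT2, CASAVA and GRCm39, and the counting tool, annotation release and strand setting are not given in the sources used here. The deposited table also holds 12 sets of columns with the authors' own comparisons (fold changes, p-values and adjusted p-values), which were not used.

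Counts were tested with edgeR 4.0.16 in R 4.3.3, by the quasi-likelihood test with TMM factors of the libraries compared. Genes whose counts in the compared libraries summed to less than 10 were left out, and p was adjusted by Benjamini-Hochberg over all genes tested. The CPM shown were scaled with TMM factors within each tissue, so CPM of retina and eye cup are on separate scales. A call needed an adjusted p below 0.05 with a log2 difference of more than 1. The SE was taken as the log2 fold change divided by the square root of F. Groups of 3 were compared alone, and the interactions used all 12 libraries of a tissue or of the mice with dox. The tissue comparison joined both tissues of the untreated wildtype mice. FPKM was used to compare levels between genes and as another scale for the ratio of the tissues, and entered no test.

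The 7 members, the lists of other chaperones and of marker genes, and the tests were chosen with earlier results of these data known. The genes named are the members, for each member and tissue the 3 genes with the highest r of log2(CPM + 1) at a mean of at least 1 CPM, and up to 4 called genes of a list by size of change. Of these, 1 gene is not reported here. Promoter sequences came from RefSeq (GRCm38.p6) and transcript positions from GENCODE vM39.

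Alternatives were DESeq2 1.42.0, its size factors in edgeR, library size alone, no count filter, filterByExpr, robust fitting, log2 fold cutoffs of 0.5 or none, 1 fit over all libraries, a replicate block, a lens crystallin covariate and leaving out each library. Leaving out wildtype retinas 1 and 2 with dox together was added after seeing the data. Retina and eye cup of the same number came from the same mouse per the labels. In the correlation of deviations from group means, same-mouse pairs had r of -0.00 to 0.19 (median 0.10), and libraries that share only a number had r of -0.56 to 0.66 (median 0.00).

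On simulated data with 200 genes changed by a log2 fold of 2, edgeR recovered 199 with retina counts (11 unchanged genes called of 20166 genes) and 122 with eye cup counts (7 of 21155 genes), and DESeq2 recovered 198 and 172, with 4 and 54 unchanged genes called. The changed genes were drawn from well counted genes only, so these recoveries do not cover genes near the floor, such as Hspb2 and Hspb7 in retina. Within each group, no library was a copy of another. Total counts per library were 15825059 to 24908314, and 3 counts per library were taken as the floor of detection, which covers counting error only.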

Additional observations from a re-analysis of the deposited data

Results flagged for a closer look

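The interaction of genotype and dox was called for Cryab in retina, at -4.09 on the log2 scale (edgeR's quasi-likelihood test, adjusted p = 0.0227). The call was lost when any one of 6 of the 12 retinas was left out, with robust fitting and with the lens crystallin covariate. Without wildtype mice 1 and 2 with dox the interaction was 0.02. For Hspb2, every wildtype mouse with dox was above every untreated wildtype mouse in retina (log2 fold change 2.44, as for 6.44% of all genes) and below every one in eye cup (-1.13, as for 16.3% of all genes), and this difference between the tissues was not tested. In retina the nearest pair of mice had 4 counts each (0.236 against 0.195 CPM), and in eye cup the rod sum was 26455 to 50864 CPM with dox against 3674 to 25839 without. Groups of 3 were not tested for single libraries that stand apart.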

How the results depend on the processing

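Of 222 counts of called members under an alternative setting, 194 stayed within 1.5 times the count reported. For PRDM13-OE against wildtype retinas with dox, 2 members were called, where 495 of all genes were. With robust fitting 1 was called (Hspb2). With the lens crystallin covariate 0 were called, where 171 of all genes were, and Cryaa turned to 0.59. Without wildtype mice 1 and 2, which left 1 wildtype retina, the falls of Cryaa and Cryab were smaller. For dox in wildtype retinas the count went from 0 to 3 with no count filter, where calls over all genes went from 1 to 186. It ranged from 0 to 3 when 1 library was left out, with 3 without wildtype mouse 3 with dox. For dox in PRDM13-OE retinas it went from 0 to 2 with no fold cutoff, 1 with a cutoff of 0.5, 2 with no count filter and 0 to 1 with 1 library left out, where Cryaa was called without untreated mouse 2 (-2.31, adjusted p = 0.00853), with 1.16% of all genes. For untreated PRDM13-OE against wildtype retinas it went from 0 to 1 with no count filter, where calls over all genes went from 0 to 47. For the retina interaction it went from 1 to 3 with no count filter, 0 with robust fitting, 0 with the lens covariate, 0 to 2 with 1 library left out, and 0 without wildtype mice 1 and 2 with dox (Cryab 0.019). In eye cup it ranged from 0 to 1 with 1 library left out for PRDM13-OE against wildtype with dox, and it went from 0 to 1 with DESeq2 and 0 to 1 with 1 library left out for dox in wildtype, where Hspb2 was called without untreated mouse 1 (-1.35, adjusted p = 0.0352), with 9.41% of all genes. For the interaction of genotype and tissue it went from 0 to 1 with DESeq2 and 0 to 4 with 1 library left out. Without the count filter the edgeR fits in retina share one spread across genes, and for the other settings the cause was not tested. With the other lens genes in place of the beta and gamma crystallins, the fold range of the ratio was 1913 (retina) and 917 (eye cup) for Cryaa and 16.1 and 3.84 for Cryab, and Tdrd7, which is not specific to the lens, held 5314 to 9233 of that list's counts in each retina. The replicate block changed no count of called members. Of 1521 values of single members, 1475 kept their call or lack of one (98 of them with a changed sign, uncalled both times), 32 became called, 12 lost a call and 2 reversed. Precision was limited by 3 mice per group and, for Hspb2 and Hspb7 in retina, by counts near the floor.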
